A study of Homo sapiens with 11 samples.

Results

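The genes of glycolysis and the pentose phosphate pathway were followed by RNA sequencing in MOLM-13, an established human acute myeloid leukemia (AML) cell line with a rearranged *KMT2A* gene. The set holds 32 of the 38557 annotated genes and was chosen by gene symbol. It covers glucose uptake, the enzymes from hexokinase to pyruvate kinase, lactate formation and monocarboxylate transport, regulatory kinases, and the oxidative and non-oxidative pentose phosphate branches. Of the 32 genes, 30 had enough counts to be tested.

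All 11 libraries came from cells harvested after 72 h. The 4 control libraries were from cells given the solvent DMSO (replicates 1 to 4), 4 were from cells given 1 µM MI-503, an inhibitor of the interaction between menin and KMT2A (replicates 1 to 4), and 3 were from cells given both 1 µM MI-503 and 100 nM PR-957 (replicates 1, 2 and 4), the group named the combination below. PR-957 inhibits PSMB8, a catalytic subunit of the immunoproteasome. No library analysed here had PR-957 alone, so PR-957 could be read only on top of MI-503. All libraries came from 1 cell line. The labels do not say whether replicates were separate cultures, so p-values measure only the spread between these libraries.

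Glycolysis breaks glucose down to pyruvate in the cytosol and yields ATP and NADH. Lactate dehydrogenase then turns pyruvate into lactate, which leaves the cell through monocarboxylate transporters. The pentose phosphate pathway branches off at glucose 6-phosphate. Its oxidative branch makes NADPH, which antioxidant enzymes and fatty acid synthesis use, and its non-oxidative branch exchanges sugar phosphates with glycolysis and supplies ribose for nucleotides. Proliferating leukemic cells are known for high glucose uptake and lactate release.

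The libraries held 18.9 M to 41.2 M fragments counted in genes. Levels are given as CPM, the counts per M of a library total scaled by TMM factors, which correct for library composition. Levels of different genes were compared only after division by exon length (RPKM, the same per kilobase of exon). That length holds all annotated exon bases of a gene, so the order of genes by RPKM depends on the annotation. Differences are log2 fold changes with their standard error (SE) from edgeR's quasi-likelihood test over 14683 genes, and a gene was called higher or lower at a Benjamini-Hochberg adjusted p under 0.05. Myeloid markers were present throughout, and the summed CPM of 9 of them was 959 ± 36.8 (SD, n = 4) in DMSO, 1380 ± 21.5 (n = 4) in MI-503 and 2576 ± 996 (n = 3) in the combination. *LYZ*, lysozyme, carried most of that difference, with means of 95.2, 375 and 1640 CPM and a range of 599 to 2511 CPM in the combination. Without it the sum of the other 8 was 864 ± 29.4, 1005 ± 23.9 and 936 ± 31 CPM. On adding PR-957, *MPO* (-0.74, adjusted p = 4.67e-05) and *FLT3* (-0.25, adjusted p = 0.00274) were lower, and *CD14* had too few counts to be tested in any group. Of 11 markers of other cell types, 4 reached the test. They included *PECAM1*, which myeloid cells also express and which had the most counts among them. Their summed counts, unscaled, were 1172 to 1703 per library in DMSO, 2629 to 4098 in MI-503 and 3711 to 5788 in the combination, and their part in the results was not tested. Combination replicate 1 stood somewhat apart, with 373 of the tested genes over 2-fold away from the average of its group's other libraries, against 256 for replicate 2 and 282 for replicate 4, and where a call of the set changed without it, the value without it is given. *MS4A1* and *PPBP*, which mark B cells and platelets, were at 0 CPM in every DMSO and MI-503 library.

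With MI-503 alone, most genes outside the pentose phosphate pathway were lower than in DMSO. Of the 30 tested genes, 22 were called lower and 2 higher, and 6 did not pass the test. Over all tested genes, 29.3% were called lower and 22% higher. The median log2 fold change of the 30 genes was -0.29, against -0.03 over all genes tested. In cells given the combination, 19 genes were called lower and 8 higher than in DMSO and 3 were not called, where 32.8% of all tested genes were called lower and 31.7% higher. The median there was -0.37, against 0.01 over all genes. When the combination was set against MI-503, 10 genes were higher, 10 lower and 10 not called. Over all tested genes 23.6% were higher and 23.8% lower. The median was -0.01, against 0.00 over all genes. Without combination replicate 1 the combination gave 8 higher and 18 lower genes against DMSO, and 8 higher and 11 lower against MI-503. Both treated groups were compared with the same DMSO libraries. In bulk RNA, fewer cells that express a gene and less RNA per cell cannot be told apart.

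The drop outside the pentose phosphate pathway was visible in the pooled RNA as well. The 26 genes of uptake, glycolysis, lactate and regulation summed to 13981 ± 327 CPM (SD, n = 4) in DMSO, 10905 ± 346 (n = 4) in MI-503 and 10788 ± 389 (n = 3) in the combination. The 6 pentose phosphate genes summed to 1469 ± 26.6 CPM in DMSO, 1532 ± 36.2 in MI-503 and 1827 ± 107 in the combination. The first sum was lower in every treated library than in any DMSO library, and the second was higher in every combination library than in any other library.

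**Figure D1:**
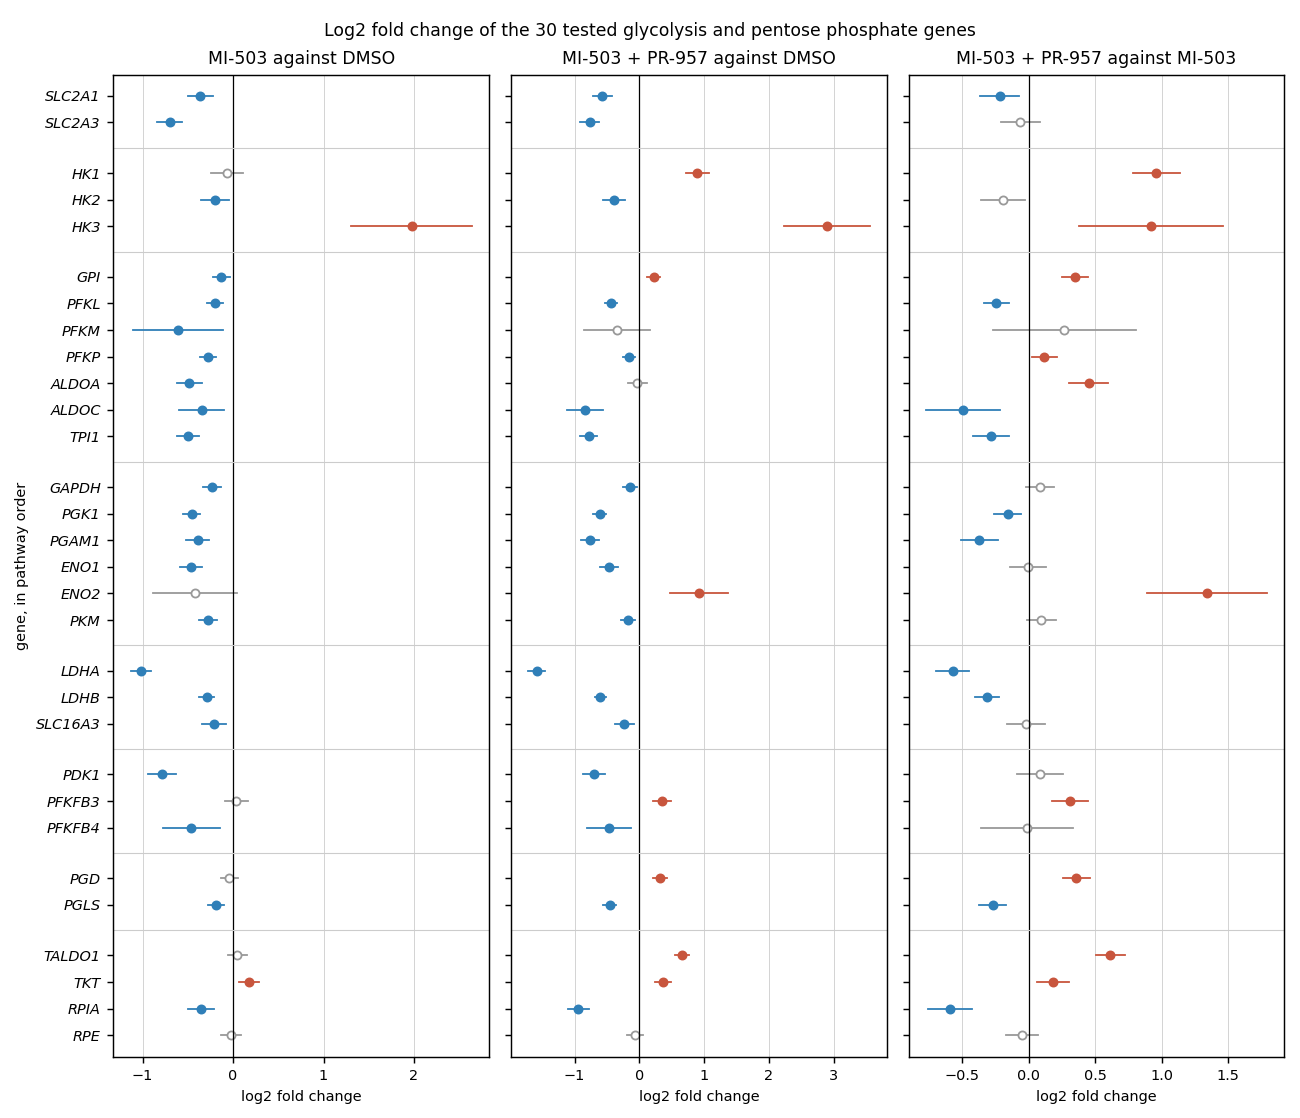
Log2 fold change of each tested gene, in pathway order from glucose uptake at the top to the non-oxidative pentose phosphate branch at the bottom, for the 3 comparisons, each with its own horizontal scale. Points are fitted values with 95% intervals; red points are called higher, blue points lower and open gray points are not called. In the left panel 22 of the 30 genes are blue, and the right panel holds 10 red and 10 blue genes.

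*SLC2A1* and *SLC2A3* encode the glucose transporters GLUT1 and GLUT3. *SLC2A3* had the higher level per length. *SLC2A3* (chr12:7919230-7936187, hg38) was at 123, 138, 134 and 112 CPM in DMSO, at 74.1, 73.7, 83.6 and 80 CPM in MI-503 and at 80, 73.8 and 69.7 CPM in the combination. All DMSO libraries lay above all treated libraries, and the treated groups overlapped. The log2 fold change was -0.70 (SE 0.06, adjusted p = 1.25e-07) with MI-503 and -0.76 (SE 0.07, adjusted p = 4.25e-08) with the combination, and between the treated groups it was -0.06 with a 95% interval from -0.21 to 0.09. *SLC2A1* was lower in both treated groups as well, with log2 fold changes of -0.36 and -0.58, and it was lower in the combination than in MI-503 by -0.21 (adjusted p = 0.0169). That last call was lost without MI-503 replicate 3 or 4 (-0.19, adjusted p 0.0545 and 0.0536). The ratio of *SLC2A3* to *SLC2A1* RPKM was 2.23 ± 0.104 in DMSO, 1.76 ± 0.0705 in MI-503 and 1.95 ± 0.148 in the combination. Fragments shared with the near-identical paralog *SLC2A14* were left out by the counting, and 1.88% of 150-base windows of the *SLC2A3* transcript recurred elsewhere in hg38.

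Hexokinases phosphorylate glucose and so hold it in the cell. Their 3 genes moved in different directions. *HK2*, the inducible form that is abundant in many tumors, was the main hexokinase RNA. *HK1*, the widely expressed form, was higher in the combination only. *HK3*, a form found in myeloid cells, was higher than in DMSO in both treated groups. *HK1* (chr10:69269991-69401882) was at 16.8, 20.3, 17.8 and 19.3 CPM in DMSO and at 17.9, 18.6, 18.2 and 16 CPM in MI-503. In the combination it was at 38.5, 30.3 and 33.8 CPM. The DMSO and MI-503 libraries overlapped, and every combination library lay above both. Its log2 fold change was -0.07 (95% interval -0.24 to 0.11) for MI-503 against DMSO and 0.96 (SE 0.08, adjusted p = 1.07e-07) for the combination against MI-503.

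*HK3* (chr5:176880869-176899373) rose with MI-503 from a low level. It was at 1.15, 1.56, 1.28 and 1.52 CPM in DMSO, at 5.87, 5.2, 5.53 and 4.91 CPM in MI-503 and at 4.58, 13.8 and 13.1 CPM in the combination. All MI-503 libraries lay above all DMSO libraries, whereas combination replicate 1 lay below all 4 MI-503 libraries and replicates 2 and 4 lay above them. The log2 fold change was 1.97 (SE 0.32, adjusted p = 6.04e-05) with MI-503 and 2.90 (SE 0.31, adjusted p = 3.35e-07) with the combination against DMSO. The combination was called higher than MI-503 (0.92, SE 0.26, adjusted p = 0.00699), and without combination replicate 1 this was 1.30 (adjusted p = 7.98e-10). The call was lost when either combination replicate 2 (leaving 0.64, adjusted p = 0.0692) or replicate 4 (leaving 0.65, adjusted p = 0.0574) was left out. *HK3* was the only one of the 30 genes with a combination library over 2-fold away from the average of its group's other libraries, and that library was replicate 1.

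*HK2* changed less. It was at 109, 119, 105 and 103 CPM in DMSO, at 91.4, 98, 95.1 and 94.9 CPM in MI-503 and at 68.8, 91.4 and 90.1 CPM in the combination. DMSO lay above both treated groups, combination replicate 2 came close to MI-503 replicate 1, and combination replicate 1 was the lowest library. Its log2 fold change was -0.20 (SE 0.07, adjusted p = 0.028) with MI-503, a call lost on leaving out any of 7 libraries in turn (DMSO replicates 1 and 2, MI-503 replicates 1, 3 and 4, combination replicates 2 and 4; adjusted p 0.0548 to 0.0965). Nor did it pass with RLE size factors (adjusted p = 0.0638), upper-quartile scaling (0.117), a stricter count filter (0.0525) or DESeq2 (0.0668). Against DMSO the combination gave -0.39 (SE 0.08, adjusted p = 0.00031), and -0.25 (adjusted p = 0.000307) without combination replicate 1. Between the treated groups the value of -0.19 did not pass the test (adjusted p = 0.0528), and without combination replicate 1 it was -0.09 (adjusted p = 0.161). It did pass without DMSO replicate 2 or combination replicate 2 or 4 (adjusted p 0.00858 to 0.0467), with RLE size factors (0.0449), without a filter on low counts (0.00458) and with DESeq2 (0.0435). As a share of the summed RPKM of the 3 hexokinases, *HK2* made up 83.1% ± 1.20 in DMSO, 77.5% ± 1.26 in MI-503 and 60.8% ± 2.05 in the combination, with no overlap between the groups. *HK1* and *HK3* took the rest. In combination replicate 1 *HK1* held 35.3% and *HK3* 6.21% of the hexokinase RPKM.

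**Figure D2:**
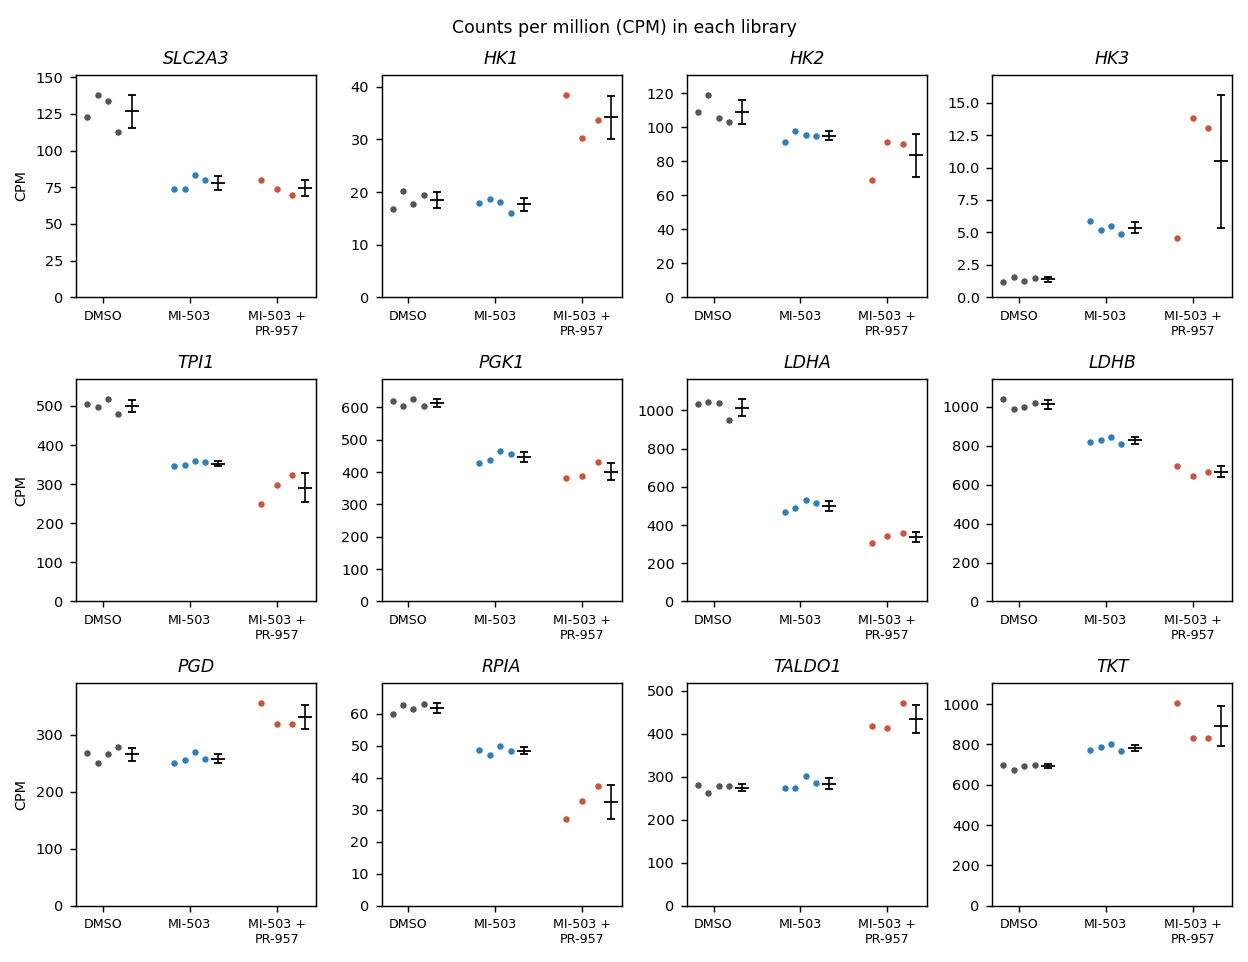
CPM of 12 genes in each library, with DMSO in gray, MI-503 in blue and the combination in red; the bar beside each group is the mean with its SD over 4, 4 and 3 libraries, and the vertical axes start at 0. *LDHA* steps down from group to group without overlap, *TALDO1* and *HK1* are raised in the red points, and 1 red point of *HK3*, replicate 1, sits just below the blue points.

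The 7 genes between hexokinase and glyceraldehyde phosphate were all called lower with MI-503, where 29.3% of all tested genes were. *TPI1*, whose enzyme interconverts the 2 triose phosphates, showed a large fall in both comparisons with DMSO. *TPI1* (chr12:6866834-6870948) was at 504, 497, 518 and 479 CPM in DMSO, at 346, 350, 359 and 356 CPM in MI-503 and at 250, 298 and 323 CPM in the combination. The 3 groups did not overlap. Its log2 fold change was -0.50 (SE 0.06, adjusted p = 2.18e-06) with MI-503, -0.78 (SE 0.06, adjusted p = 1.26e-08) with the combination and -0.28 (SE 0.06, adjusted p = 0.00164) between them. *PFKL*, the liver-type phosphofructokinase of the committed step, followed the same order with -0.20, -0.44 and -0.24, all called. *ALDOC*, a minor aldolase, did so from a lower level with -0.35, -0.84 and -0.49. The first of its calls (adjusted p = 0.0207) was lost without DMSO replicate 2 or 3 or MI-503 replicate 3 or 4 (-0.31 to -0.22, adjusted p 0.0616 to 0.0947) and with upper-quartile scaling (0.0645).

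Other genes of the upper pathway fell with MI-503 and were higher again when PR-957 was added. *GPI*, which isomerizes glucose 6-phosphate at the point where the pentose phosphate pathway branches off, was at 477, 479, 487 and 461 CPM in DMSO, at 423, 432, 443 and 443 CPM in MI-503 and at 518, 552 and 592 CPM in the combination. Every combination library lay above all others. The change with MI-503 was small (-0.13, SE 0.04, adjusted p = 0.0199) and its call was lost without any 1 of 5 libraries (DMSO replicate 3, MI-503 replicates 1 and 2, combination replicates 2 and 4; -0.12 to -0.09, adjusted p 0.0534 to 0.112), while without combination replicate 1 it was -0.08 and still called (adjusted p = 0.0492). It was lost as well with RLE size factors (adjusted p = 0.0653), upper-quartile scaling (0.181), no filter on low counts (0.0776) and DESeq2 (0.0555). The combination was 0.22 above DMSO (adjusted p = 0.00055) and 0.35 above MI-503 (SE 0.05, adjusted p = 1.25e-05). *ALDOA*, the main aldolase of most tissues, gave -0.49 (adjusted p = 9.36e-06) with MI-503, -0.03 (not called) with the combination and 0.45 (adjusted p = 4.61e-05) between them. Its level cannot be read, because 80.4% of its main transcript is also annotated as exon of *LOC112694756*, and fragments that fit both genes were not counted. For *GPI* that share was 20.3% of all annotated exon bases and 0 of the main transcript.

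*PFKP*, the platelet-type phosphofructokinase, was -0.28 (adjusted p = 2.83e-05) with MI-503 and -0.16 (adjusted p = 0.00447) with the combination. Its rise of 0.12 on adding PR-957 (adjusted p = 0.0396) was lost on leaving out any of 6 libraries (MI-503 replicates 1, 2 and 4, each combination library; adjusted p 0.072 to 0.235, the latter without combination replicate 1), and with RLE size factors (0.0672), no filter on low counts (0.0716), DESeq2 (0.0836) or a fit of the 2 compared groups (0.0669). *PFKL* carried 61.3% ± 1.38 of the phosphofructokinase RPKM in DMSO, 62.6% ± 0.603 in MI-503 and 56.6% ± 1.34 in the combination, and *PFKP* nearly all the rest. *PFKM*, the muscle type, lay between 0.99 and 2.94 CPM in all libraries. It was called lower with MI-503 (-0.61, SE 0.24, adjusted p = 0.0386) although the groups overlapped, and the call was lost without any of 6 libraries (DMSO replicates 1, 2 and 3, MI-503 replicates 2 and 3, combination replicate 2; -0.63 to -0.41, adjusted p 0.0593 to 0.154), with upper-quartile scaling (0.067) and with DESeq2 (0.066). Its other comparisons were not called.

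In lower glycolysis, from glyceraldehyde phosphate to pyruvate, 5 of 6 genes were called lower with MI-503, where 29.3% of all tested genes were. *PGK1* (chrX:78104248-78129295), which makes the first ATP of the payoff phase, was at 620, 603, 626 and 604 CPM in DMSO, at 428, 439, 465 and 457 CPM in MI-503 and at 383, 388 and 431 CPM in the combination. All DMSO libraries lay above the rest, and combination replicate 4 reached into the MI-503 range. The log2 fold change was -0.46 (SE 0.04, adjusted p = 2.89e-07), -0.61 (SE 0.05, adjusted p = 7.86e-09) and, between treated groups, -0.16 (SE 0.05, adjusted p = 0.0124), which became -0.25 without combination replicate 4 (adjusted p = 0.000275). *PGAM1*, the phosphoglycerate mutase, was lower in all 3 comparisons with -0.39, -0.76 and -0.37 (adjusted p at most 0.000245). Because 77.2% of 150-base windows of its transcript recur elsewhere in hg38, fragments that fitted several places were left out of its counts.

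*GAPDH*, *ENO1* and *PKM*, the most abundant RNAs of this stretch, fell with MI-503 and showed no further fall with PR-957. *ENO1*, the main enolase, was -0.46 (SE 0.06, adjusted p = 4.94e-06) with MI-503, -0.47 (SE 0.06, adjusted p = 5.65e-06) with the combination, and the 95% interval of the difference between the treated groups ran from -0.14 to 0.13. *GAPDH*, often used as a reference gene, was at 4453, 4292, 4431 and 4282 CPM in DMSO, at 3661, 3695, 3863 and 3634 CPM in MI-503 and at 4218, 3741 and 3871 CPM in the combination. DMSO lay above both treated groups, and the treated groups overlapped. It changed by -0.23 (SE 0.05, adjusted p = 0.000418) with MI-503 and by -0.15 (SE 0.05, adjusted p = 0.0164) with the combination, a call lost without combination replicate 2 (-0.11, adjusted p = 0.0771), with a stricter count filter (0.0577) and in a fit of the 2 compared groups (0.0533). *PKM*, pyruvate kinase of dividing cells, was similar with -0.27 and -0.18 (adjusted p = 0.00014 and 0.0067). Under upper-quartile scaling the *GAPDH*, *PKM* and *PFKP* values for the combination against DMSO were -0.08, -0.11 and -0.09 and were not called.

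*ENO2*, the enolase named for neurons, was rare and behaved in its own way. It was at 2.23, 4.73, 3.32 and 2.37 CPM in DMSO, at 2.78, 2.58, 1.77 and 2.17 CPM in MI-503 and at 6.89, 5.61 and 5.09 CPM in the combination. The combination lay above both other groups, which overlapped. Its log2 fold change was 1.34 (SE 0.21, adjusted p = 6.91e-05) against MI-503 and 0.92 (SE 0.21, adjusted p = 0.000954) against DMSO. With MI-503 it was -0.42 and not called (adjusted p = 0.121), but called without DMSO replicate 1 (-0.58, adjusted p = 0.0426) and without a filter on low counts (-0.40, adjusted p = 0.0369). Per length, *ENO1* stayed far above it, with an RPKM ratio of 737 ± 226 in DMSO and 271 ± 68.5 in the combination.

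*LDHA* showed the largest fall of the 30 genes in both comparisons with DMSO. It encodes the M subunit of lactate dehydrogenase, which favors lactate formation, while *LDHB* encodes the H subunit. *LDHA* (chr11:18394389-18408425) was at 1031, 1042, 1036 and 947 CPM in DMSO, at 466, 491, 529 and 515 CPM in MI-503 and at 308, 345 and 360 CPM in the combination. The 3 groups lay apart, with combination replicate 1 lowest. The log2 fold change was -1.02 (SE 0.05, adjusted p = 2.39e-10) with MI-503, -1.59 (SE 0.06, adjusted p = 1.99e-12) with the combination and -0.57 (SE 0.06, adjusted p = 8.35e-07) for adding PR-957. *LDHA* and *HK3* were the 2 genes of the set that were called and changed more than 2-fold with MI-503, and 5.56% of all tested genes met those terms. They were also the 2 past that size with the combination against DMSO, where 11.9% of all tested genes were. On adding PR-957 to MI-503, *ENO2* was the 1 gene past it, against 4.47% of all tested genes.

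*LDHB* (chr12:21635342-21657971) fell in the same order but less. It was at 1040, 990, 998 and 1020 CPM in DMSO, at 821, 831, 846 and 809 CPM in MI-503 and at 697, 642 and 664 CPM in the combination, again without overlap. Its log2 fold changes were -0.29 (SE 0.04), -0.60 (SE 0.04) and -0.31 (SE 0.04), with adjusted p of 1.02e-05, 2.48e-09 and 1.76e-05. The ratio of *LDHA* to *LDHB* RPKM was 0.703, 0.746, 0.735 and 0.658 in the DMSO libraries, 0.402, 0.419, 0.443 and 0.451 in the MI-503 libraries and 0.313, 0.381 and 0.384 in the combination libraries. The groups did not overlap in this ratio, although combination replicates 2 and 4 lay close to the lowest MI-503 library.

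*SLC16A3* (MCT4), the lactate exporter of glycolytic cells, was -0.21 with MI-503 (adjusted p = 0.00872) and -0.23 with the combination (adjusted p = 0.00662), and -0.02 between them (95% interval -0.16 to 0.12). The second of these calls was lost without combination replicate 1 (-0.12, adjusted p = 0.0554). Of the main *SLC16A3* transcript 18.5% is also annotated to *CSNK1D*, and fragments there were not counted. *SLC16A1* (MCT1) had 4 counts over all 11 libraries and was not tested. Its locus is also present on a fix-patch contig of the counting annotation, and of 678 genes annotated on such a contig 73.5% had at most 10 counts, against 48.3% of 36371 genes on 1 contig, so its low count cannot be read as low expression.

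The promoters of the lactate dehydrogenase genes are shown because the pair fell by different amounts. Sequences run 5′ to 3′ from 250 bases before to 50 bases after a RefSeq start (GRCh38.p14), with capitals marking matches on either strand to CACGTG (the E-box that MYC and related factors can bind), ACGTG (the core of the HIF site, which lies within CACGTG) or TGACNNNGC (the core of the antioxidant response element). *LDHA* has 2 listed starts, and the upstream one, chr11:18394313-18394612 on the plus strand, held 2 E-boxes and 1 further ACGTG. The other *LDHA* start, chr11:18396101-18396400 and not shown, held none of the 3 motifs. The *LDHB* promoter, chr12:21657793-21658092 on the minus strand, held none of the 3 motifs.
LDHA: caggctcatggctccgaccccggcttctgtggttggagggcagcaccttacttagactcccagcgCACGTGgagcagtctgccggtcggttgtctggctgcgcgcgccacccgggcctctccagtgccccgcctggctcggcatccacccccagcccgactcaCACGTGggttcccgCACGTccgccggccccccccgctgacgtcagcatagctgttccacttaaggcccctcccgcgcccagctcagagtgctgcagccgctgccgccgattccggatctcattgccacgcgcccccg
LDHB: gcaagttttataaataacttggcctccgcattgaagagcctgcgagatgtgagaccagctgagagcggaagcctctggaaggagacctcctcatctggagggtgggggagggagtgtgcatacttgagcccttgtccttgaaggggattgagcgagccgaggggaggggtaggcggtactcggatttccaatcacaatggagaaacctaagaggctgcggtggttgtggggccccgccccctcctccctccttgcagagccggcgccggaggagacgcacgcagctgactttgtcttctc

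RefSeq promoters were found for 29 of the 32 genes, 55 sequences in all. Shares are given over sequences and, since a gene can have several starts, over genes with a match in any of them. CACGTG was in 10.9% of the 55 sequences, against 7.26% of all 35116 promoters, and in 20.7% of the 29 genes, against 8.77% of all 27305. It stood in the promoters of *ALDOA*, *ALDOC*, *GAPDH*, *HK2*, *LDHA* and *PFKFB3*. ACGTG outside an E-box was in 27.3% of the sequences, against 15.5% of all, and in 44.8% of the genes, against 18.2% of all. TGACNNNGC was in 12.7% of the sequences, against 13.3% of all, and in 24.1% of the genes, against 16.1% of all. The set had more listed starts per gene than the average gene. These shares describe letters in a fixed window and were not tested.

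**Figure D3:**
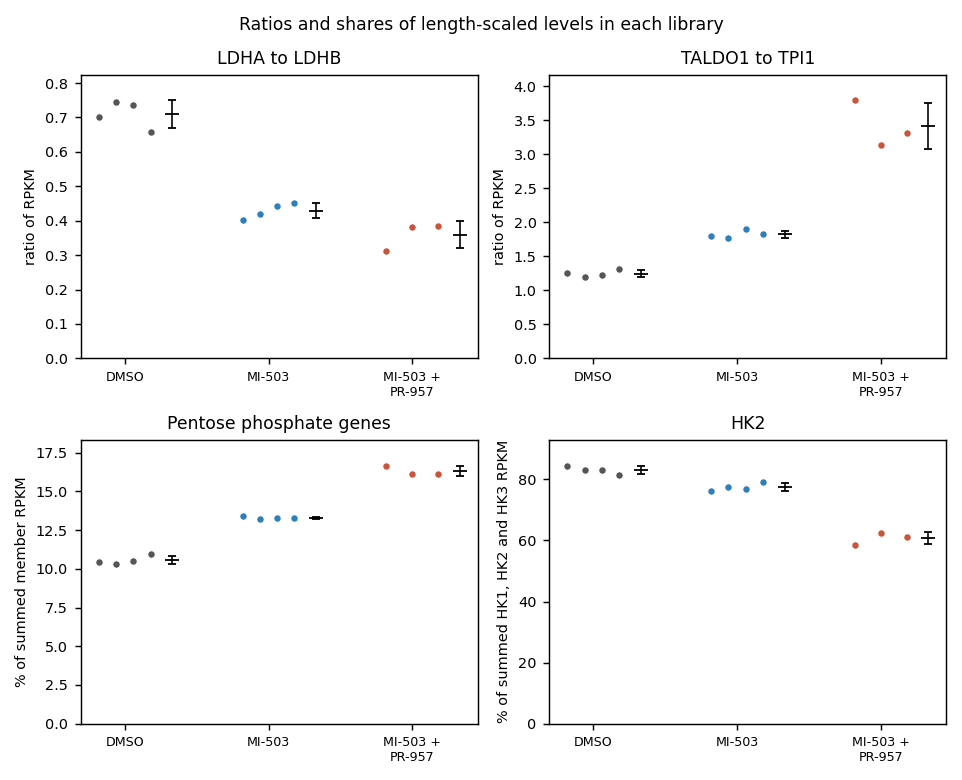
Ratio of *LDHA* to *LDHB* RPKM, ratio of *TALDO1* to *TPI1* RPKM, share of the 6 pentose phosphate genes in the summed RPKM of the 32 genes, and share of *HK2* in the summed RPKM of the 3 hexokinases, for each library with group mean and SD over 4, 4 and 3 libraries. The 3 groups are separate in all 4 panels, with the *TALDO1* to *TPI1* ratio between 1.19 and 1.31 in DMSO and between 3.14 and 3.79 in the combination.

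Among the kinases that tune the pathway, *PDK1* fell most. PDK1 inhibits pyruvate dehydrogenase and thereby keeps pyruvate out of the mitochondrial citric acid cycle. It was at 34.1, 38.7, 30.3 and 32.7 CPM in DMSO, at 20, 18.1, 20.5 and 20.4 CPM in MI-503 and at 19.5, 21.9 and 21.6 CPM in the combination. DMSO lay above both treated groups, which overlapped. Its log2 fold change was -0.78 (SE 0.07, adjusted p = 1.81e-07) with MI-503 and -0.70 (SE 0.08, adjusted p = 6.15e-07) with the combination, and 0.09 between them with a 95% interval from -0.08 to 0.26.

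The PFKFB enzymes set the level of fructose 2,6-bisphosphate, an activator of phosphofructokinase. *PFKFB3*, the form with the strongest kinase activity, was 0.04 with MI-503 (not called) and 0.31 (SE 0.06, adjusted p = 0.000734) for the combination against MI-503, or 0.20 without combination replicate 4 (adjusted p = 0.0153). Its combination libraries, at 82, 95.6 and 103 CPM, lay above all 8 others. *PFKFB4* fell by a similar amount in both comparisons with DMSO (-0.46 and -0.47, adjusted p = 0.0154 and 0.016). The first call was lost without DMSO replicate 2 or 3 (adjusted p 0.0721 and 0.0529), and the second without DMSO replicate 2 or combination replicate 2 or 4 (-0.44 to -0.32, adjusted p 0.0503 to 0.07). *PFKFB2* had 4 counts over all libraries and was not tested.

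The pentose phosphate genes did not fall as a block. With MI-503, 1 of 6 was called higher, 2 lower and 3 not called, and their median log2 fold change was -0.03, against -0.35 for the 24 tested genes outside this pathway, of which 20 were lower and 1 higher. Among all tested genes 22% were higher and 29.3% lower. With the combination against DMSO, 3 of the 6 were higher and 2 lower, and outside the pathway 5 of 24 were higher and 17 lower, against 31.7% and 32.8% of all tested genes. When PR-957 was added to MI-503 the 6 genes again gave 3 higher and 2 lower, and the other 24 gave 7 higher and 8 lower, where 23.6% and 23.8% of all tested genes were. The share of the 6 genes in the summed RPKM of all 32 was 10.6% ± 0.267 in DMSO, 13.3% ± 0.0711 in MI-503 and 16.3% ± 0.317 in the combination, without overlap. The size of this share is limited by genes with uncounted fragments or unreadable counts. These include *ALDOA*, *PGAM1* and *SLC16A1* outside the pathway, and *PGLS* and *RPE* within it.

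In the oxidative branch the tested genes moved apart. *PGD*, whose enzyme 6-phosphogluconate dehydrogenase yields NADPH, was at 269, 251, 267 and 278 CPM in DMSO, at 251, 256, 271 and 257 CPM in MI-503 and at 356, 320 and 320 CPM in the combination. Only the combination stood out, above all 8 other libraries. The log2 fold change was -0.04 (95% interval -0.14 to 0.06) with MI-503 and 0.36 (SE 0.05, adjusted p = 1.59e-05) for the combination against MI-503. *PGLS*, the lactonase of the step before it, fell in each comparison, with -0.19 (adjusted p = 0.00146), -0.46 (adjusted p = 1.92e-07) and -0.27 (adjusted p = 0.000166). Of the main *PGLS* transcript 23.9% is also annotated to *LOC100507551*, and fragments there were not counted.

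In the non-oxidative branch *TALDO1* and *TKT*, which shuffle 3-carbon and 2-carbon units between sugar phosphates, were raised in the combination. *TALDO1* (chr11:747464-765012) was at 280, 262, 279 and 277 CPM in DMSO, at 274, 274, 301 and 286 CPM in MI-503 and at 419, 413 and 471 CPM in the combination. DMSO and MI-503 overlapped and every combination library lay far above them. The log2 fold change was 0.05 (95% interval -0.05 to 0.15) with MI-503, 0.66 (SE 0.05, adjusted p = 6.85e-09) with the combination and 0.61 (SE 0.05, adjusted p = 7.44e-08) between the treated groups. The small value with MI-503 was called under upper-quartile scaling (0.11, adjusted p = 0.0483) and when only the compared groups were fitted (0.10, adjusted p = 0.0227).

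*TKT* was the only gene besides *HK3* that was higher with MI-503. It was at 700, 675, 695 and 699 CPM in DMSO, at 770, 789, 802 and 767 CPM in MI-503 and at 1004, 831 and 834 CPM in the combination. The groups did not overlap, and combination replicate 1 was highest. The change was 0.18 (SE 0.05, adjusted p = 0.0103) with MI-503 and 0.36 (SE 0.06, adjusted p = 2.63e-05) with the combination. On adding PR-957 it was 0.19 (adjusted p = 0.0125), but 0.06 and not called without combination replicate 1 (adjusted p = 0.195).

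*RPIA* and *RPE*, which interconvert ribulose, ribose and xylulose phosphates, did not share this rise. *RPIA* (chr2:88691673-88750929) was at 59.8, 62.7, 61.6 and 63.2 CPM in DMSO, at 48.7, 47.1, 49.8 and 48.2 CPM in MI-503 and at 27.1, 32.7 and 37.4 CPM in the combination. The 3 groups stepped down without overlap. Its log2 fold change was -0.35 (SE 0.07, adjusted p = 0.000405) with MI-503, -0.94 (SE 0.08, adjusted p = 1.27e-08) with the combination and -0.59 (SE 0.08, adjusted p = 1.04e-05) between them. *RPE* was not called in any comparison (-0.02, -0.07 and -0.05). Without combination replicate 1 it was called lower in the combination than in MI-503 (-0.14, adjusted p = 0.03). Of its main transcript 26.4% is shared with *KANSL1L*.

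With *TALDO1* higher and *TPI1*, its neighbor at the triose phosphates, lower, the ratio of their RPKM was 1.25 ± 0.0512 in DMSO, 1.82 ± 0.0556 in MI-503 and 3.41 ± 0.340 in the combination. The size of this ratio depends on the exon length used, which was 2719 bases for *TPI1* against 1351 in its main transcript. The promoters of *PGD* and *TALDO1*, the pentose phosphate genes of the set with the largest rise on adding PR-957, are shown with the capitals as above. The *PGD* promoter, chr1:10398814-10399113 on the plus strand, held 1 match to TGACNNNGC, read on the opposite strand, and 1 ACGTG. The *TALDO1* promoter, chr11:747214-747513 on the plus strand, held none of the 3 motifs.
PGD: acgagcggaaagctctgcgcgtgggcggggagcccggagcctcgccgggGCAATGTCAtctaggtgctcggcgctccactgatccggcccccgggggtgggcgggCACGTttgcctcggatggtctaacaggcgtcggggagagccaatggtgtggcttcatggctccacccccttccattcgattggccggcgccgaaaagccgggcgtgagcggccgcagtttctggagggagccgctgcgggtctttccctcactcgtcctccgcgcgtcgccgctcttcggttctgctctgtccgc
TALDO1: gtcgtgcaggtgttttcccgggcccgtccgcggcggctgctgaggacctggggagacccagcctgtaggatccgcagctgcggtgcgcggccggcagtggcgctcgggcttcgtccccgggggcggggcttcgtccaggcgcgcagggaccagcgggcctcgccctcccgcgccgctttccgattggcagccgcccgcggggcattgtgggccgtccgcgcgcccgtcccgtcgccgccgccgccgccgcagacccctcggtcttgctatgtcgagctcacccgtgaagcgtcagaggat

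Per length, *GAPDH* was the most abundant RNA of the set in DMSO at 2521 ± 51.9 RPKM (SD, n = 4), rank 24 among all annotated genes. It was followed by *ENO1* at 932 ± 28.9, *LDHB* at 518 ± 11.4 and *LDHA* at 367 ± 16.4, whose ranges did not overlap. *PKM* (289 ± 8.27) and *PGAM1* (269 ± 6.20) came next, then *TALDO1* (229 ± 7.09) and *TKT* (215 ± 3.60). This order holds for the exon length used and can differ with another. The length was 4125 bases for *PKM* and 2760 for *LDHA*, against 2305 and 2241 in their main transcripts. For *TALDO1* both lengths were 1199. In the combination *TALDO1* stood at 362 ± 26.7 and *LDHB* at 341 ± 14.1, and these levels did not differ beyond their spread. *LDHA*, which had been above *PGD* in DMSO, was at 122 ± 9.63 beside 134 ± 8.43 for *PGD*, again within the spread. All 32 genes together took 1.50% ± 0.0305 of the counted fragments in DMSO, 1.24% ± 0.0299 in MI-503 and 1.31% ± 0.0320 in the combination.

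**Figure D4:**
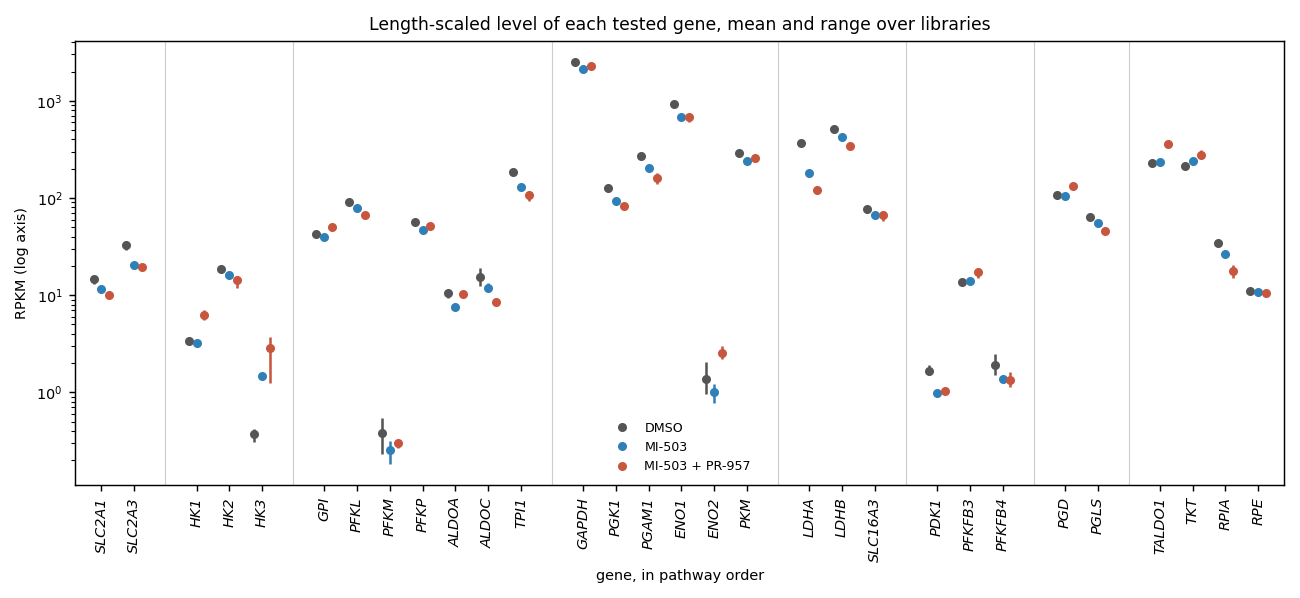
RPKM of the 30 tested genes on a log axis, in pathway order, with DMSO in gray, MI-503 in blue and the combination in red; points are group means and lines run from the lowest to the highest library (4, 4 and 3 libraries). Levels span from under 1 RPKM (*PFKM*, *HK3* in DMSO) to 2521 RPKM in DMSO (*GAPDH*), and the order of the colors turns from falling in *LDHA* to rising in *TALDO1*.

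Genes that stand next to the pathway gave the following picture. Of 12 tested genes for pyruvate entry into mitochondria, 6 were lower and 6 not called with MI-503, where 29.3% of all tested genes were lower. *DLAT* and *DLD*, subunits of the pyruvate dehydrogenase complex, had the smallest adjusted p, at -0.50 (SE 0.04, adjusted p = 1.63e-08) and -0.53 (SE 0.04, adjusted p = 2.16e-08). With the combination against MI-503, *DLD* was 0.24 higher (adjusted p = 0.000337), *PDHA1* was -0.33 (adjusted p = 2.11e-05), and *PDP1*, a phosphatase that activates the complex, was 0.62 higher (adjusted p = 9.46e-06). In that comparison 3 of the 12 were higher and 5 lower, against 23.6% and 23.8% of all tested genes.

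Of 12 other tested genes of glycolysis and gluconeogenesis, 4 were higher and 1 lower with MI-503, where 22% and 29.3% of all tested genes were. *FBP1*, the fructose bisphosphatase of gluconeogenesis, rose by 0.88 (SE 0.24, adjusted p = 0.00619) from a mean of 1.11 CPM. *PGM2*, a phosphopentomutase, was -0.28 (adjusted p = 2.24e-05), and *ADPGK*, an ADP-dependent glucokinase, was 0.37 higher in the combination than in MI-503 (adjusted p = 2.82e-06). Among 8 other tested genes of the pentose phosphate pathway, 4 were lower and 1 higher with MI-503, and 2 were higher and 2 lower when PR-957 was added, against 23.6% and 23.8% of all tested genes. *PRPS1* and *PRPS2*, which turn ribose 5-phosphate into the nucleotide precursor, were -0.43 and -0.46 with MI-503 and -0.57 and -0.98 with the combination. *TIGAR*, a phosphatase that lowers fructose 2,6-bisphosphate, was -0.58 (SE 0.08, adjusted p = 1.17e-05) with MI-503 and 0.64 (SE 0.08, adjusted p = 1.04e-05) for the combination against MI-503.

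NADPH can also come from malic enzymes, isocitrate dehydrogenases and the folate cycle. Of 10 tested genes of these sources, 7 were lower and 1 higher with MI-503, and 5 were lower and 2 higher when PR-957 was added. The shares of all tested genes were 29.3% lower and 22% higher in the first comparison and 23.8% and 23.6% in the second. *ME1*, the cytosolic malic enzyme, was -0.47 with MI-503 (adjusted p = 0.0132) and 2.09 for the combination against MI-503 (SE 0.14, adjusted p = 4.79e-09), with means of 9.22, 6.70 and 28.3 CPM in DMSO, MI-503 and the combination. *ALDH1L2*, a mitochondrial folate enzyme, went the other way with -0.66 (SE 0.05, adjusted p = 3.5e-08), then -0.76 (SE 0.06, adjusted p = 3.35e-08). *IDH1*, the cytosolic isocitrate dehydrogenase, was higher with MI-503 by 0.58 (SE 0.04, adjusted p = 3.14e-09).

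NFE2L2 (NRF2) is a transcription factor of the oxidative stress response, and *PGD*, *TALDO1* and *TKT* are among the genes it is known to control. Of 14 other known NFE2L2 target genes, 13 were higher in the combination than in MI-503, with a median of 0.69, where 23.6% of all tested genes were higher. With MI-503 against DMSO 1 was higher and 5 lower, with a median of -0.08, against 22% and 29.3% of all tested genes. The lower genes included *NQO1* (-0.86, adjusted p = 2.27e-06), *PRDX1* (-0.45, adjusted p = 7.65e-07) and *GSR* (-0.23, adjusted p = 0.00143). The combination against DMSO gave 10 higher and 2 lower, with a median of 0.71, against 31.7% and 32.8% of all tested genes. Mean *NQO1* was 32.7 CPM in DMSO and 24.9 CPM in the combination, and the libraries of these groups overlapped. For the combination against MI-503, *HMOX1*, heme oxygenase 1, had the largest value at 6.50 (SE 0.69, adjusted p = 1.03e-06). Its level in the combination was uneven. It was at 0.407 to 0.825 CPM in MI-503 and at 7.97, 89.2 and 47.3 CPM in the combination (48.2 ± 40.6, SD, n = 3), with replicate 1 lowest and all 3 above every MI-503 library. *GCLM* and *GCLC*, the subunits of the first enzyme of glutathione synthesis, were 1.16 (SE 0.07, adjusted p = 5.74e-10) and 0.68 (SE 0.06, adjusted p = 7.62e-08).

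HIF1 is the hypoxia factor for which many glycolytic genes are known targets. Of 12 tested HIF1 targets outside glycolysis, 6 were lower and 3 higher with MI-503, with a median of -0.38, and 4 were higher and 2 lower when PR-957 was added, with a median of 0.13. Of all tested genes 29.3% were lower and 22% higher with MI-503, and 23.6% were higher and 23.8% lower on adding PR-957. *BNIP3*, a mitophagy receptor, was -1.39 (SE 0.11, adjusted p = 1.83e-08) with MI-503, as was *DDIT4*, an inhibitor of mTOR signaling (SE 0.11, adjusted p = 3.94e-08). *EGLN1*, the oxygen sensor of the pathway, was -0.65 (SE 0.04, adjusted p = 2.03e-09). *VEGFA* moved the other way, at 0.26 (SE 0.04, adjusted p = 0.000116).

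Among 10 tested regulators of glucose metabolism, 3 were higher and 2 lower with MI-503, where 22% and 29.3% of all tested genes were. When PR-957 was added 5 were higher and 2 lower, against 23.6% and 23.8%. *MYC*, a transcription factor with many glycolytic targets including *LDHA*, was -0.41 (SE 0.04, adjusted p = 5.71e-07) with MI-503, -0.82 (SE 0.05, adjusted p = 1.54e-10) with the combination and -0.41 (SE 0.05, adjusted p = 1.88e-06) between them. *ARRDC4*, an arrestin that limits glucose uptake, was -0.50 (SE 0.12, adjusted p = 0.0027) with MI-503 and 2.20 (SE 0.11, adjusted p = 1.97e-10) for the combination against MI-503. *MLXIP* (MondoA), a glucose sensor known to control *ARRDC4*, was 0.28 in both steps (adjusted p = 0.000511 and 0.00089).

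**Figure D5:**
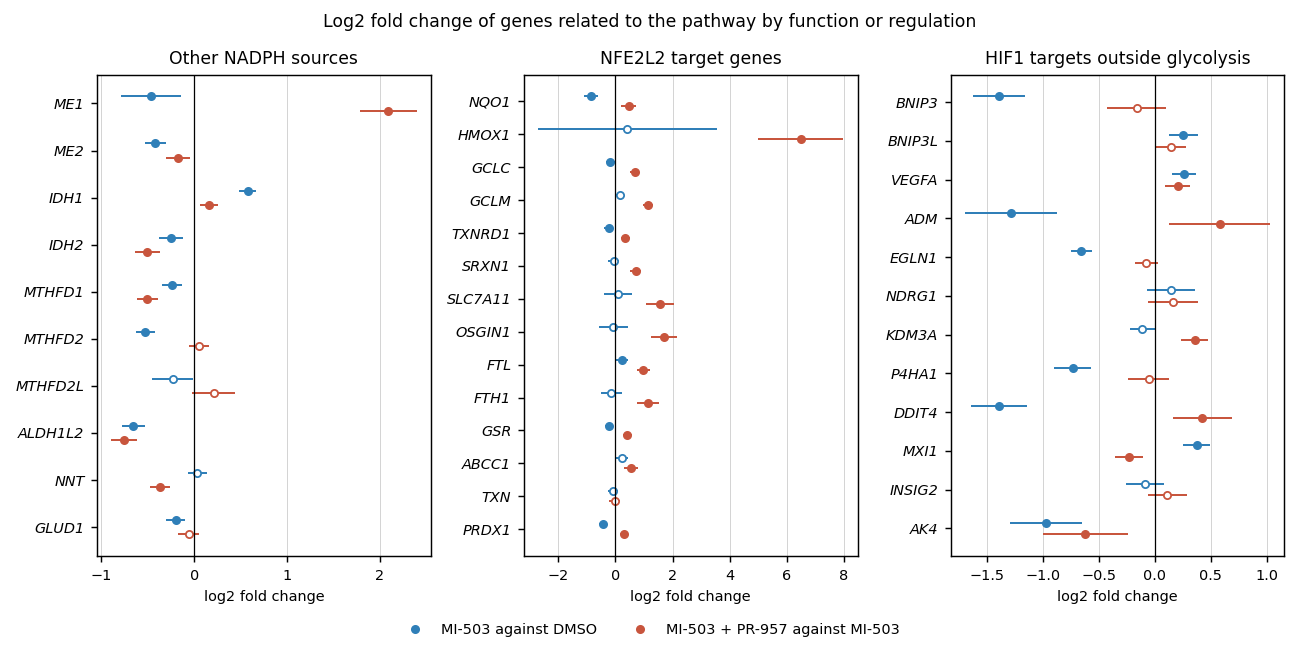
Log2 fold change with 95% interval of genes that supply NADPH outside the pentose phosphate pathway, known NFE2L2 targets and known HIF1 targets outside glycolysis, for MI-503 against DMSO (blue) and the combination against MI-503 (red); filled points were called and open points were not. In the middle panel 13 of 14 red points are filled and lie to the right of 0, up to 6.50 for *HMOX1*, and the horizontal scales differ between panels.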

How the data were processed

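Libraries were TruSeq RNA libraries read as 150-base pairs. Per the submitters' processing notes and methods, reads were processed with Trimmomatic 0.39, STAR 2.7.10a and featureCounts 2.0.1 on hg38. The authors deposited unnormalized fragment counts for each gene and library, made from RefSeq exons without regard to strand. Fragments fitting several places or several genes were not counted, and the rule that had filtered the alignments is not stated. The deposited tables of DESeq2 log2 fold changes, standard errors and p-values were not used.

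Counts of all 11 libraries entered 1 edgeR 4.0.16 model (R 4.3.3, limma 3.58.1) with a mean per group, TMM factors and filterByExpr (minimum count 10, minimum total 15), which kept 14683 genes. Contrasts were tested two-sided with the quasi-likelihood test and Benjamini-Hochberg adjustment. The procedure was tested on simulated data. RPKM used the annotated exon bases on the primary chromosome. Alternatives were other scaling factors, filters, DESeq2 1.42.0, fits of the compared groups, a replicate block, leaving out each library and a stricter threshold. All 32 genes were named. Values from a related list were given for genes with 1 of its 3 smallest adjusted p in at least 1 comparison. Not all such genes were named, and values for other comparisons were given as well. Cell markers were not named by this rule. The members, lists and motifs were chosen with earlier results of these data known. Transcript windows of 150 bases and promoters were searched with Python 3.11.15.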

Additional observations from a re-analysis of the deposited data

Results flagged for a closer look

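In groups of 4 libraries, a value was singled out where the gap between the highest or lowest library and its nearest neighbor took most of the group's range, by Dixon's 95% criterion, which chance meets in about 1 of 20 groups. Of 96 groups checked, 6 met it. *LDHA* in DMSO was lowest in replicate 4, at 947 CPM, with the others at 1031 to 1042 CPM, and *SLC2A1* in DMSO was lowest in the same library, at 43.5 CPM against 51.5 to 53.0 CPM. The ratio of *TKT* to *GAPDH* RPKM was highest in DMSO replicate 4, at 0.0879 against 0.0844 to 0.0846. *TALDO1* in DMSO was lowest in replicate 2, at 262 CPM against 277 to 280 CPM, and so was the summed level of the 6 pentose phosphate genes, at 1429.9 CPM against 1478.7 to 1487.6 CPM. *HK1* took 14.3% of the hexokinase RPKM in MI-503 replicate 4 and 15.8% to 16.0% in the other MI-503 libraries. The combination, with 3 libraries, was not checked in this way.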

How the results depend on the processing

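Of 90 pairs of a tested gene and a comparison, 70 kept their side of the threshold under every alternative run. The other 20 did not, 15 of these on leaving out a library. Among pairs called in the main fit or in the alternative, 0 reversed direction. Values not called in either could change sign near 0, such as *RPE* with MI-503, at 0.02 without combination replicate 1. At an adjusted p under 0.01, 1 gene rather than 2 was higher with MI-503 (*HK3*) and 17 rather than 22 lower (*HK2*, *GPI*, *PFKM*, *ALDOC* and *PFKFB4* dropped out). The combination against DMSO then gave 8 higher and 17 lower, and the combination against MI-503 8 and 8, without *PFKP*, *TKT*, *SLC2A1* and *PGK1*. At that threshold 39.9% of all tested genes were called, in either direction, for MI-503 against DMSO. The shares were 53.8% for the combination against DMSO and 34.8% for the combination against MI-503. With CPM in place of RPKM the pentose phosphate share was 9.51% in DMSO, 12.3% in MI-503 and 14.5% in the combination. Leaving out 1 library at a time gave 2 higher and 18 to 22 lower genes for MI-503 against DMSO, 8 higher and 17 to 19 lower for the combination against DMSO, and 8 to 10 higher and 9 to 11 lower for the combination against MI-503. Replicate numbers showed no clear pairing of the samples. Same-numbered libraries had correlations of -0.102 to 0.144 in their deviations from group means, and not every library correlated best with its own number. With so few libraries in a group, such weak correlations cannot exclude that same-numbered libraries were made together. With a replicate block, MI-503 against DMSO gave 2 higher and 21 lower genes, the combination against DMSO 8 and 19, and the combination against MI-503 10 and 11; *PFKM* with MI-503 was no longer called (adjusted p = 0.0512) and *HK2* between treated groups was (adjusted p = 0.0243). Depth limits *PFKM*, *HK3* and *ENO2*, which were under 5 CPM in every DMSO library.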
